A study of Sus scrofa with 2 samples.

Results

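The transcripts described here encode collagens and other proteins of the extracellular matrix, with the enzymes that process and degrade them. They were chosen by the name of the best protein match deposited for each transcript (collagen alpha, fibronectin, fibrillin, fibulin, elastin, lumican, decorin, biglycan, fibromodulin, versican, tenascin, thrombospondin, SPARC, periostin, matrix metalloproteinase, metalloproteinase inhibitor, lysyl oxidase and procollagen). The rule itself takes no measured value, but it was set with earlier results of these data known. This rule took 97 of the 12535 transcripts that had a read in either library. The 97 entries carried 86 gene names, since some genes were split into several entries, and 2 of them, FANK1 and TENM2, are no matrix proteins and had 1 or 2 reads in each library. Entries such as COL6A1, COL6A2, COL3A1 and ELN were not among them and were not analysed here.

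The series holds 1 RNA-seq library of an abnormal and 1 of a normal cloned group of newborn piglets, both of biceps femoris muscle sampled at Day 1 after birth. The labels give the phenotype of the abnormal pool as developmental failure. Its 3 cloned piglets could not stand or walk normally and showed an enlarged tongue (macroglossia) and a protruding navel (acromphalus). The normal pool held 4 cloned piglets according to the methods and 3 according to the labels. All piglets came from somatic cell nuclear transfer and were delivered by caesarean. The 3 abnormal and 2 of the normal piglets came from Day 35 embryonic fibroblasts of a male Large White pig, whereas ear fibroblasts of another male gave the other 2 normal piglets. The donor and the group can therefore in part not be separated, and their shares in a difference cannot be told apart. No piglet was measured on its own. Every test below therefore compares the 2 libraries, not the conditions, and the 95% intervals (Wilson, on the fraction of reads from the abnormal pool) cover counting error only.

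The extracellular matrix of muscle is secreted mostly by fibroblasts between the fibres and, for the sheet that wraps each fibre and capillary, also by the fibres and endothelial cells themselves. Fibrillar collagens give it tensile strength, type IV collagen forms the network of the basement membrane, small leucine-rich proteoglycans coat and space the fibrils, and matricellular proteins such as thrombospondins bind cells and growth factors without building structure. Matrix metalloproteinases and ADAMTS enzymes cut these proteins, TIMPs inhibit the cutting, and lysyl oxidases crosslink collagen and elastin.

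Unique reads numbered 6.38 M for the abnormal and 6.52 M for the normal library, and 3 reads corresponded to 0.470 and 0.460 RPM (reads per M reads). Mitochondrial transcripts took 36.0% of abnormal and 46.1% of normal library reads. With libraries scaled to these totals, the median log2 RPKM ratio (abnormal over normal) of the 7493 genes with 10 or more reads in each library was 0.36. RPKM is the read count per kb of transcript and per M reads. Because of this shift, ratios are given with libraries scaled by total and are also read against 0.36, the all-gene median. Skeletal muscle markers were abundant, with ACTA1, MYH3, MYLPF and TNNC2 together at 10.1% of abnormal and 9.34% of normal library reads.

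With libraries scaled by total, most matrix transcripts differed little between the libraries. A gene was called when its Benjamini-Hochberg adjusted p from the Audic-Claverie test was at most 0.001 and its log2 ratio at least 1 in size. THBS1, THBS2 and ADAMTS9 were called higher in the abnormal cloned group, 3 of 97 members or 3.09%, where 12% of all genes were called higher. MMP23B was called lower, 1 of 97 or 1.03%, where 1.45% of all genes were called lower. With libraries scaled by the median ratio, 2 members (THBS1 and THBS2) were called higher, against 6.48% of all genes, and 4 (MMP23B, LOXL4, FBLN1 and TIMP1) were called lower, which is 4.12% of the members against 3.97% of all genes. Among the 64 members with 20 or more reads in both libraries together, the median log2 ratio was -0.07, beside 0.39 for the 8140 genes with as many reads. Of these 64 members, 48 lay below the all-gene median of 0.36, as did 3939 of the 8140 genes. The counting interval lay wholly below 0.36 for 36 members (56.2%) and for 27.0% of all genes, and wholly above it for 6 members (9.38%) and for 29.7% of all genes. The matrix transcripts thus sat mostly near equal RPKM, in a comparison in which the typical gene was higher in the abnormal library.

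**Figure D1:**
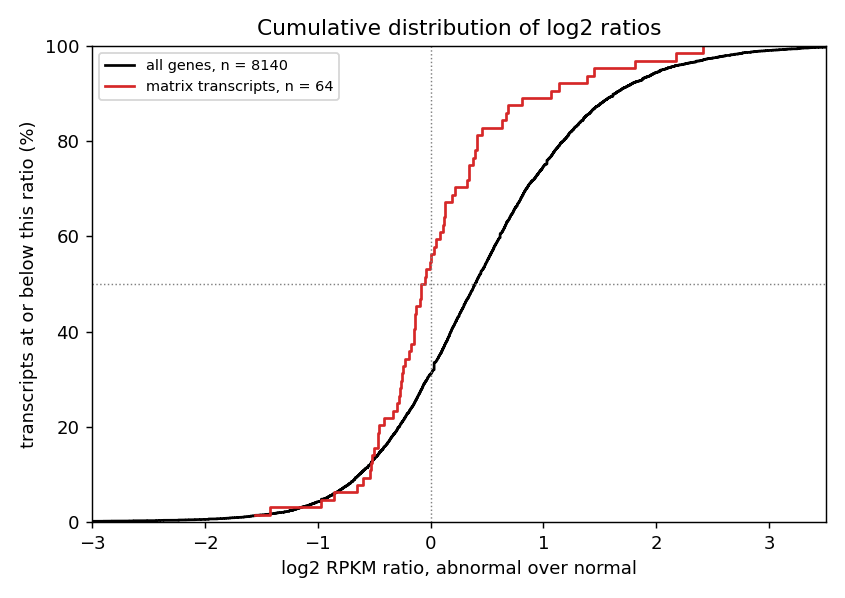
Cumulative distribution of the log2 RPKM ratio (abnormal over normal, x axis) as the percentage of transcripts at or below each ratio (y axis), for the 64 matrix transcripts and the 8140 genes with 20 or more reads in both libraries together. The red line of the matrix transcripts crosses 50% near -0.07 and the black line of all genes near 0.39.

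The members spanned several orders of magnitude in RPKM and kept nearly the same order in both libraries. Spearman's rho of RPKM between the libraries was 0.955 across the 64 members and 0.894 across the 8140 genes, a description across genes, which are not independent replicates. Of the 97 members, 91 were detected in abnormal and 96 in normal muscle RNA, and 35 and 34 had 100 or more reads. Together they took 0.784% (0.778 to 0.791%) of abnormal and 0.857% (0.850 to 0.864%) of normal library reads. Without mitochondrial transcripts in the totals these shares were 1.23% and 1.59%. The 5 most abundant members, COL1A2, SPARC, COL4A1, DCN and the larger of the short COL1A1 entries, held 72.8% of abnormal and 74.1% of normal member reads. Fibrillar collagens made up 34.6% and 33.7% of member reads, and the basement membrane group 34.3% and 36.0%. Proteoglycans made up 12.5% and 12.7%, adhesive and matricellular transcripts 8.57% and 7.04%, remodelling transcripts 5.40% and 5.74%, other collagens 3.13% and 3.07%, and elastic microfibrils 1.51% and 1.76%.

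**Figure D2:**
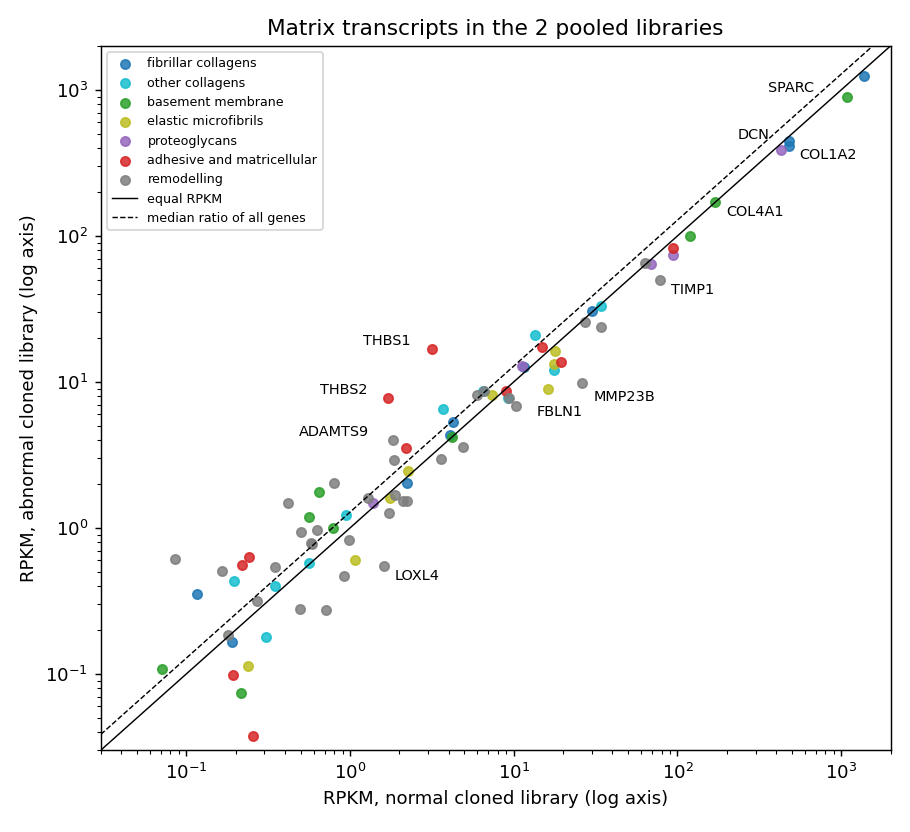
RPKM of the matrix transcripts with reads in both libraries, in the normal (x axis) and the abnormal cloned library (y axis), both on log axes and coloured by group. The solid line marks equal RPKM and the dashed line the all-gene median ratio (log2 0.36). THBS1, THBS2 and ADAMTS9 lie above both lines, MMP23B, LOXL4, FBLN1 and TIMP1 below, and the abundant transcripts follow the solid line.

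Fibrillar collagens are the load-bearing rods of connective tissue. None of their 10 entries was called, where 12% of all genes were called higher and 1.45% lower. COL1A2, the second chain of type I collagen, had 13580 reads (445 RPKM) in the abnormal and 14852 reads (477 RPKM) in the normal library, a log2 ratio of -0.10 (-0.13 to -0.06). It ranked 160 and 155 of all genes by RPKM. COL5A2, a chain of the type V collagen that sets fibril diameter, had exactly 819 reads in each library (30.5 and 29.9 RPKM, log2 0.03, -0.11 to 0.17). COL5A3 had 430 and 402 reads, a log2 ratio of 0.13 (-0.07 to 0.32). For each of these 3 chains the interval lay wholly below the all-gene median, as it did for 6 of the 8 fibrillar entries with 20 or more reads. COL11A1 had 77 and 87 reads (log2 -0.15, -0.59 to 0.30). The group's median log2 ratio over 8 entries with 20 or more reads was -0.03, with a range of -0.22 to 0.34, and all 8 lay below 0.36. COL24A1 and COL11A2 had at most 7 reads in a library.

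Type I collagen's first chain was split among entries. The deposited positions (Sscrofa9, chromosome 12) placed the short entry ENSSSCG00000017581 at 24681959 to 24682484 and ENSSSCG00000017582 at 24682654 to 24682728, both on the minus strand. A longer entry named COL1A1, ENSSSCG00000017579, spanned 24667625 to 24687958 on the plus strand. That entry does not carry the wording of the rule. The library preparation marked no strand, so reads of overlapping entries on opposite strands cannot be told apart. The first short entry, 246 bp long, had 1941 and 2195 reads (1237 and 1369 RPKM, log2 -0.15, -0.23 to -0.06), and the 75 bp entry 196 and 234 reads (log2 -0.22, -0.50 to 0.05). The longer entry had 1842 and 1628 reads (86.0 and 74.4 RPKM, log2 0.21, 0.11 to 0.31). The intervals of the 246 bp entry and of the longer entry thus lay on opposite sides of 0. Summed over the 3 entries, COL1A1 had 3979 abnormal and 4057 normal reads, a log2 ratio of 0.00 (-0.06 to 0.07). This sum averages entries that disagreed, and its narrow interval covers counting error only. With libraries scaled by total, COL1A2 and the COL1A1 sum were near equal between the libraries, and both intervals lay wholly below 0.36. COL5A1 likewise had 2 entries on chromosome 1 that do not overlap. The plus-strand entry had 172 and 139 reads, and the other, on the minus strand, had 89 and 86. The best protein match of the second was a type I chain, while the gene table named it COL5A1. Whether both belong to 1 gene was not tested, and they are not summed: their log2 ratios were 0.34 (0.02 to 0.66) and 0.08 (-0.35 to 0.51).

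None of the 13 entries of the other collagens was called, where 12% of all genes were called higher and 1.45% lower. This group was spread more widely than the fibrillar chains. COL12A1, a collagen that decorates type I fibrils in tendon and fascia, had 258 reads (6.48 RPKM) in the abnormal and 150 reads (3.69 RPKM) in the normal library. Its log2 ratio was 0.81 (0.52 to 1.10), with an adjusted p of 2.1e-07, under the fold of the call. With a second COL12A1 entry outside the rule, which lies on the opposite strand, the summed log2 ratio was 0.89 (0.61 to 1.17). COL14A1, a relative of COL12A1 that also binds fibrils, pointed the other way. It had 475 reads (12.1 RPKM) in the abnormal and 704 reads (17.5 RPKM) in the normal library, a log2 ratio of -0.54 (-0.70 to -0.37) with an adjusted p of 2.26e-09. The intervals of these 2 related collagens do not overlap. COL16A1 had 243 and 297 reads (log2 -0.26, -0.50 to -0.01).

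COL6A3, a chain of the microfibrillar type VI collagen whose faults cause congenital muscle disease, was split into 3 neighbouring entries. They had 395 and 416 reads (log2 -0.04, -0.24 to 0.15), 94 and 62 reads (0.63, 0.17 to 1.09), and 52 and 40 reads (0.41, with an interval that included 0). Summed, COL6A3 had 541 and 518 reads, a log2 ratio of 0.09 (-0.08 to 0.27). With libraries scaled by total, the sum of these entries was thus level although 1 of them was not. The first entry held most of the summed reads. The summed interval lay wholly below 0.36. Of the remaining entries of this group, COL28A1 had 14 and 11 reads, and 6 (COL13A1, COL17A1, a pair of COL21A1 entries, COL6A5 and COL26A1) had under 20 reads in both libraries together.

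Basement membrane transcripts were led by SPARC, a collagen-binding glycoprotein that helps to assemble type IV collagen. It had 10463 reads (887 RPKM) in the abnormal and 13148 reads (1091 RPKM) in the normal library, a log2 ratio of -0.30 (-0.34 to -0.26). COL4A1, a chain of the main type IV network, had 5856 and 5974 reads, or 170.6 and 170.4 RPKM. Its log2 ratio was 0.00 (-0.05 to 0.05), 0.36 below that of the typical gene. COL15A1, found between basement membrane and fibrils, had 679 and 828 reads (99.6 and 119 RPKM, log2 -0.26, -0.40 to -0.11). SMOC1 had 42 and 43 reads.

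2 members of the basement membrane group with few reads had intervals above 0. SPARCL1, a relative of SPARC, had 32 and 12 reads (1.76 and 0.647 RPKM, log2 1.45, 0.51 to 2.39), with an adjusted p of 0.0102. Its reads covered only 8.18% and 5.37% of its length. COL4A5, a minor type IV chain of the X chromosome, had 39 and 19 reads (log2 1.07, 0.29 to 1.85), with an adjusted p of 0.0293. Both failed the adjusted p of the call. They passed at an adjusted p of at most 0.05, where 7 members in all were higher (THBS1, THBS2, ADAMTS9, ADAMTS20, SPARCL1, COL4A5 and TNC) and 2 lower (MMP23B and LOXL4). These are 7.22% and 2.06% of the members, where 15.7% of all genes were higher and 2.73% lower at that threshold. COL7A1, the anchoring fibril collagen, had 57 and 46 reads, and COL4A3, COL4A4, COL8A2 and a second SPARC entry had at most 3 reads in a library.

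In the elastic microfibril group of fibulins and fibrillins, 4 of 6 entries with 20 or more reads had intervals wholly below the all-gene median, and none was above it. FBLN1, a fibulin of basement membranes and elastic fibres, had 155 reads (8.91 RPKM) in the abnormal and 287 reads (16.1 RPKM) in the normal library. It was thus 1.81-fold lower in the abnormal library, with a log2 ratio of -0.86 (-1.14 to -0.58) and an adjusted p of 8.93e-09, short of the fold of the call. With libraries scaled by the median ratio its log2 ratio was -1.22 and it was called lower. EFEMP2, also known as fibulin-4, had 141 and 192 reads (log2 -0.41, -0.73 to -0.10). FBLN5, which tethers elastin to cells, had 234 and 263 reads (log2 -0.14, -0.39 to 0.12), and EFEMP1 had 106 and 99 (0.13, -0.26 to 0.52). The fibrillin FBN2 had 91 and 102 reads. FBN1, the main fibrillin after birth, was listed with 0 abnormal and 1 normal read. Reads were counted only where they mapped to 1 transcript, so that a gene with a near copy among the transcripts can lose reads, and no level is read from this value.

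All 5 small and large proteoglycans had 20 or more reads, and all 5 lay below the all-gene median. None was called, where 12% of all genes were called higher and 1.45% lower. DCN, which coats type I fibrils and binds growth factors, had 4582 reads (386 RPKM) in the abnormal and 5168 reads (427 RPKM) in the normal library, a log2 ratio of -0.14 (-0.20 to -0.09). BGN, its closest relative, had 838 and 1078 reads (74.3 and 93.6 RPKM, log2 -0.33, -0.46 to -0.20). LUM, the proteoglycan lumican, had 585 and 633 reads (log2 -0.08, -0.24 to 0.08). For these 3 abundant proteoglycans the interval lay wholly below 0.36. FMOD had 125 and 112 reads (log2 0.19, -0.18 to 0.56) and the large proteoglycan VCAN 99 and 94 (0.11, -0.30 to 0.51).

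The adhesive and matricellular group held the 2 highest ratios among the members with 20 or more reads. THBS1, a secreted glycoprotein that activates latent TGF-beta and restrains blood vessel growth, had 465 reads (16.9 RPKM) in the abnormal and 89 reads (3.17 RPKM) in the normal library. It was 5.34-fold higher in the abnormal cloned group (log2 2.42, 2.09 to 2.74), with an adjusted p of 2.14e-62, and 2.06 above the all-gene median on the log2 scale. Abnormal library reads covered 86.9% of its length and normal library reads 44.6%, a share that grows with the number of reads. Its transcript lies on chromosome 1 from 138129409 to 138145238, minus strand. THBS2, the closest relative of THBS1, had 177 reads (7.75 RPKM) in the abnormal and 40 reads (1.71 RPKM) in the normal library. It was 4.52-fold higher (log2 2.18, 1.68 to 2.67), with an adjusted p of 3.85e-21, and 1.82 above the all-gene median. It lies on the same chromosome from 926901 to 949670, plus strand.

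The other 2 thrombospondins had ratios below 0. THBS3 had 174 and 184 reads (log2 -0.05, -0.35 to 0.25). THBS4, a thrombospondin of tendon and muscle attachment sites, had 274 reads (13.6 RPKM) in the abnormal and 402 reads (19.5 RPKM) in the normal library, a log2 ratio of -0.52 (-0.74 to -0.30). The intervals of THBS1 and THBS2 overlap each other and lie above those of THBS3 and THBS4, which lie below 0.36. THBS1 and THBS2 belong to the trimeric thrombospondins, and THBS3 and THBS4 to the pentameric ones. By RPKM the order of the family in the normal library was THBS4, THBS3, THBS1 and THBS2, and in the abnormal library THBS1, THBS4, THBS3 and THBS2.

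POSTN, periostin, the most abundant of this group, had 1596 reads (82.7 RPKM) in the abnormal and 1863 reads (94.5 RPKM) in the normal library, a log2 ratio of -0.19 (-0.29 to -0.10). TNXB, a tenascin of connective tissue, had 1379 and 1213 reads (log2 0.22, 0.10 to 0.33), which covered 30.3% and 28.4% of its length. FN1, fibronectin, the scaffold on which other fibrils assemble, had 187 and 119 reads in its longer entry (3.54 and 2.20 RPKM, log2 0.68, 0.35 to 1.01), with an adjusted p of 0.000261, and 10 and 4 reads in a shorter entry within the same span. Its summed log2 ratio was 0.71 (0.39 to 1.03), under the fold of the call. Only reads that mapped to 1 transcript were counted, so reads that fit both FN1 entries can be lost from both. TNC, a tenascin of development and repair, had 23 and 9 reads (log2 1.38, 0.30 to 2.47), with an adjusted p of 0.049. A pair of entries for tenascins R or N had at most 7 reads in a library.

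**Figure D3:**
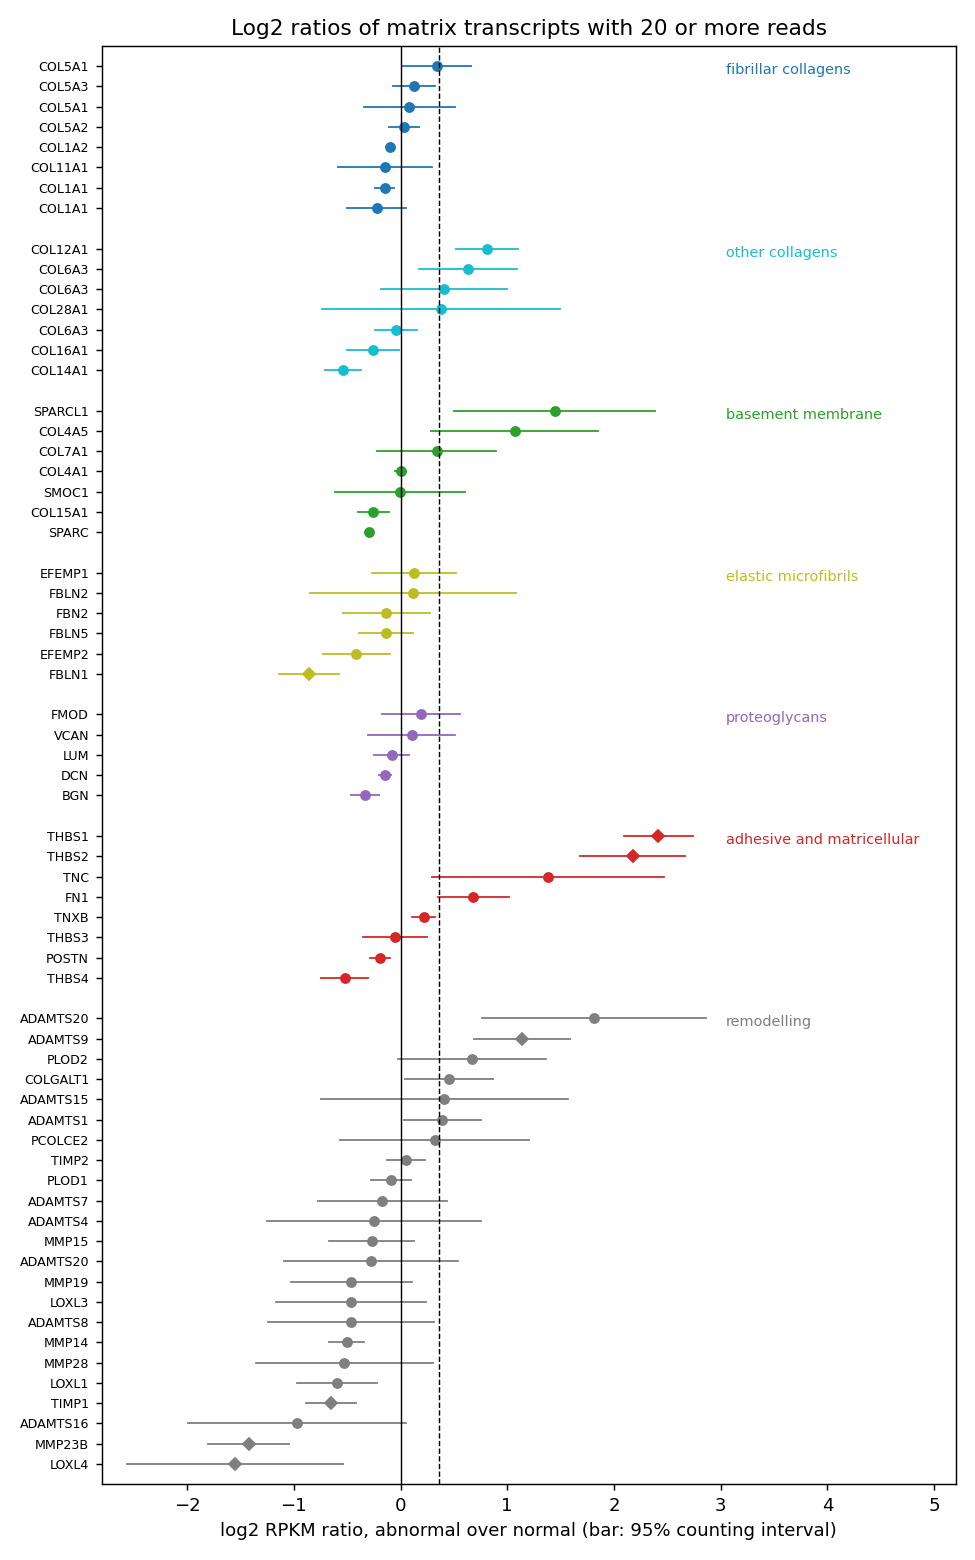
Log2 RPKM ratio (abnormal over normal, x axis) of each of the 64 matrix transcripts with 20 or more reads in both libraries together, with its 95% counting interval as a bar, by group; names that appear more than once are separate entries. Diamonds mark the 7 members called under either scaling, the solid line equal RPKM and the dashed line the all-gene median of 0.36. The intervals of 36 members lie wholly left of the dashed line and those of 6 wholly right of it.

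Matrix metalloproteinases, the enzymes that cut collagens and other matrix proteins, lay below the all-gene median in all 5 entries with 20 or more reads, each with its whole interval. MMP23B, a small metalloproteinase without the usual hemopexin part, had 76 reads (9.79 RPKM) in the abnormal and 208 reads (26.2 RPKM) in the normal library. It was 2.68-fold lower in the abnormal cloned group (log2 -1.42, -1.80 to -1.04), with an adjusted p of 8.2e-14. Its transcript lies on chromosome 6 from 43071451 to 43073760, plus strand, and reads covered 74.0% and 91.2% of it. MMP14, a membrane-bound collagenase that activates MMP2, had 498 reads (23.9 RPKM) in the abnormal and 721 reads (33.9 RPKM) in the normal library, a log2 ratio of -0.50 (-0.67 to -0.34) with an adjusted p of 1.33e-08. MMP15 had 90 and 111 reads, MMP19 had 42 and 59, and MMP28 had 19 and 28. The median log2 ratio of the 5 was -0.50, and all 5 were negative, although only the intervals of MMP14 and MMP23B lay below 0.

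TIMP1, an inhibitor of most metalloproteinases, had 237 reads (49.9 RPKM) in the abnormal and 380 reads (78.3 RPKM) in the normal library. Its log2 ratio was -0.65 (-0.88 to -0.42), with an adjusted p of 2.49e-07, and it was called lower when libraries were scaled by the median ratio (log2 -1.01). After correction for transcript length the ratio was -0.32. TIMP2, which also takes part in MMP2 activation with MMP14, had 519 and 512 reads (65.4 and 63.2 RPKM, log2 0.05, -0.13 to 0.23). The interval of TIMP1 lay wholly below that of TIMP2.

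The lysyl oxidase relatives, which crosslink collagen and elastin, had ratios below 0 in all 3 entries. LOXL4 had 10 reads (0.55 RPKM) in the abnormal and 30 reads (1.61 RPKM) in the normal library, a log2 ratio of -1.55 (-2.57 to -0.54) with an adjusted p of 0.0067. It was called lower with libraries scaled by the median ratio, from these 40 reads. LOXL1, required for elastic fibres, had 92 and 142 reads (log2 -0.60, -0.97 to -0.22), with an adjusted p of 0.00686. LOXL3 had 27 and 38 reads (log2 -0.46, -1.17 to 0.24).

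The ADAMTS proteinases, which cut proteoglycans and procollagens, were mostly scarce, with 9 of 19 entries at 20 or more reads. ADAMTS9, a proteinase of versican and aggrecan, had 125 reads (4.02 RPKM) in the abnormal and 58 reads (1.83 RPKM) in the normal library. It was 2.20-fold higher (log2 1.14, 0.69 to 1.59), with an adjusted p of 2.45e-06, and 0.78 above the all-gene median, where it was no longer called. ADAMTS1 had 140 and 109 reads (log2 0.39, 0.03 to 0.75). ADAMTS20 had 2 overlapping entries on the same strand that did not go together. The longer one had 31 and 9 reads (log2 1.82, 0.77 to 2.86), with an adjusted p of 0.00216, and the other 21 and 26 (log2 -0.28, -1.10 to 0.54). Reads that fit both ADAMTS20 entries can be lost from both counts. ADAMTS16 had 11 and 22 reads. The other ADAMTS entries ranged down to 0 reads.

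Among enzymes that modify procollagen, PLOD1, a lysyl hydroxylase, had 430 and 467 reads (25.6 and 27.2 RPKM, log2 -0.09, -0.28 to 0.10). PLOD2, the hydroxylase of collagen telopeptides, had 42 and 27 reads (log2 0.67, -0.02 to 1.36). COLGALT1, which adds galactose to hydroxylysine, had 110 and 82 reads (log2 0.45, 0.04 to 0.87). None of the 5 procollagen enzymes was called, where 12% of all genes were called higher and 1.45% lower. Across the 36 remodelling entries, 23 had 20 or more reads, their median log2 ratio was -0.27, and the intervals of 13 lay wholly below 0.36 and of 2 wholly above it.

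Abundance and transcript length both moved with the ratio. Among the 14 members with 1000 or more reads in both libraries together, the median log2 ratio was -0.14 and the interval lay wholly below 0.36 for all 14. Of the 913 genes with as many reads, this was so for 475, and their median was 0.21. Longer transcripts had higher ratios across all genes, with a median log2 ratio of 0.15 for lengths of 500 to 1000 bp, 0.35 for 1000 to 2000 bp, 0.56 for 2000 to 4000 bp and 0.74 over 4000 bp. The members with 20 or more reads had a median length of 2686 bp against 1602 bp for all genes. Within the 3 upper length classes most members stood lower than other genes. They were below the median of all genes of their class in 16 of 17 entries of 1000 to 2000 bp, in 20 of 24 of 2000 to 4000 bp, and in 13 of 18 over 4000 bp. Corrected by the running median over length, the members' median log2 ratio was -0.18 and that of all genes 0.39. THBS1 and THBS2 kept ratios of 2.06 and 1.84 after this correction.

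**Figure D4:**
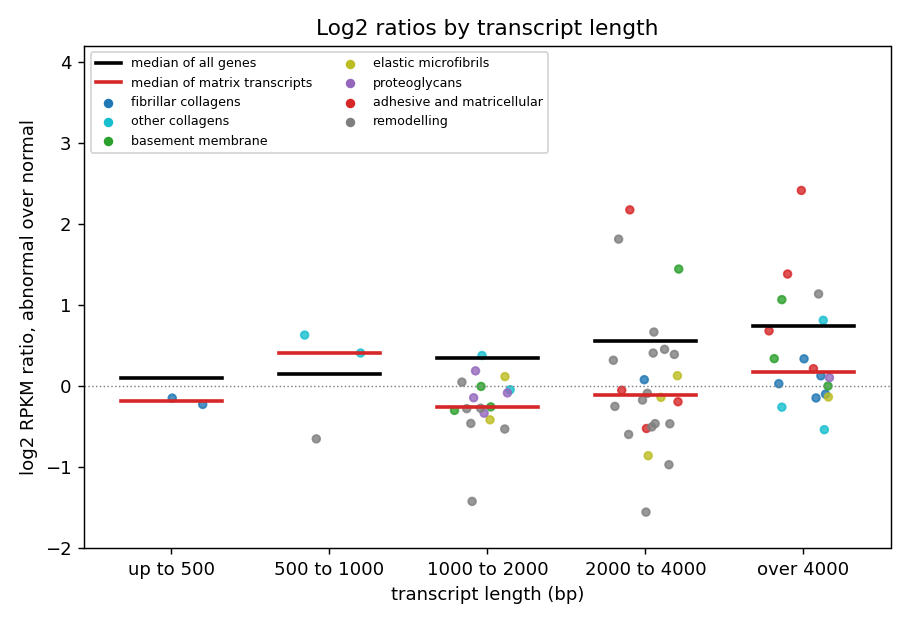
Log2 RPKM ratio (abnormal over normal, y axis) of the 64 matrix transcripts with 20 or more reads, in 5 classes of transcript length (x axis, bp), with points coloured by group and spread sideways only for visibility. Black bars are medians of all genes of the class and red bars those of the matrix transcripts. The black bars rise from 0.10 to 0.74 with length, and the red bars lie below them in every class except 500 to 1000 bp, which held 3 members.

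Genes outside the rule that serve the same matrix were counted from 3 lists. Of the collagen folding and secretion list, 19 of 27 symbols had reads in 20 entries, of which 6 were members already given. In the 14 others, 2 (14.3%) were called higher, beside 12% of all genes, and none lower. HSPA5, the endoplasmic reticulum chaperone BiP, had 2321 and 957 reads and was 2.48-fold higher (log2 1.31, adjusted p 1.87e-133). SEC23A, a coat protein of the vesicles that carry procollagen, had 90 and 38 reads (log2 1.27, 0.73 to 1.82). SERPINH1, the collagen-specific chaperone HSP47, had 1057 and 771 reads (263 and 188 RPKM, log2 0.49, 0.35 to 0.62) and was not called. The median log2 ratio of the 9 with 20 or more reads was 0.49, beside 0.39 for all genes with as many reads. That of the 19 collagen chains in the rule with as many reads was 0.03. With libraries scaled by the median ratio the 9 had a median of 0.13. None of the 14 was then called, where 6.48% of all genes were called higher and 3.97% lower.

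The list of other matrix proteins had reads for 32 of 39 symbols, of which 5 were members. In the 27 others, 2 (7.41%) were called higher, beside 12% of all genes, and none lower. CYR61, a matricellular protein that binds integrins, had 1106 reads (90.3 RPKM) in the abnormal and 262 reads (20.9 RPKM) in the normal library and was 4.31-fold higher (log2 2.11, 1.91 to 2.30). It was the only one of these 27 called under median scaling, where 6.48% of all genes were called higher and 3.97% lower. NID1, the link between laminin and type IV collagen, had 235 and 107 reads (log2 1.17, adjusted p 9.72e-12), and its relative NID2 had 456 and 450 (0.05, -0.14 to 0.24). MGP, which inhibits calcification of matrix, had 2415 and 3143 reads (log2 -0.35, -0.43 to -0.27). HSPG2, a basement membrane proteoglycan, had 723 and 453 reads (log2 0.71, 0.54 to 0.87), and LTBP1 had 36 and 15 (1.29, 0.44 to 2.15). Neither was called. The median log2 ratio of the 20 with 20 or more reads was 0.02, beside 0.39 for all genes with as many reads. Of these 20, the intervals of 4 lay wholly above 0.36 and of 10 wholly below it.

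The list of matrix turnover had reads for 22 of 28 symbols. CTSL, a lysosomal cysteine proteinase, had 40 and 13 reads (log2 1.65, 0.76 to 2.54) and ADAM9 had 69 and 26 (log2 1.44, 0.79 to 2.08), and both were called higher, 9.09% of 22 entries beside 12% of all genes. The reads of CTSL covered only 8.56% and 8.77% of its length. FAP, a surface proteinase of activated fibroblasts, had 149 and 291 reads (log2 -0.93, -1.22 to -0.65), and CTSS had 42 and 78 (-0.86, -1.40 to -0.32). The latter pair was called lower only when libraries were scaled by the median ratio, and CTSL and ADAM9 were then no longer called. These are 2 of 22 entries, where 3.97% of all genes were called lower under that scaling.

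Summed markers of the cells that could supply matrix RNA had log2 ratios between -0.65 and 0.63. Fewer cells of a type and less RNA per cell cannot be told apart in a pool of whole muscle. Of the fibroblast list, 8 of 9 symbols had reads and none was called with libraries scaled by total. The summed level was 1137 abnormal and 1265 normal reads (log2 -0.12, -0.24 to -0.01). Singly, the 7 with 20 or more reads had a median log2 ratio of 0.20 and a range of -0.93 to 1.33, with 4 above 0 and 3 below. VIM had 604 and 631 reads, PDGFRA 71 and 40 and THY1 71 and 96. FAP, given above with 149 and 291, was the 1 fibroblast marker of 8 called lower under median scaling, where 3.97% of all genes were. The endothelial list had 1379 and 1354 reads over 8 of 9 symbols (log2 0.06, -0.05 to 0.17), and smooth muscle and pericyte markers 3451 and 3936 over 5 of 7 (-0.16, -0.22 to -0.09). Singly, 5 of the 8 endothelial markers lay below 0 and 3 above (median -0.09, range -0.34 to 0.92). Of the 5 smooth muscle and pericyte markers, 3 lay above 0 and 2 below (median 0.02). Macrophage and leukocyte markers were scarce, with 178 and 245 reads over 7 of 8 symbols (log2 -0.43, -0.71 to -0.15), of which CSF1R, the most abundant, had 95 and 91. PTPRC with 5 and 22 and AIF1 with 19 and 44 had the lowest ratios of that list, and both were called lower with libraries scaled by the median ratio. These are 2 of 7 entries, where 3.97% of all genes were called lower under that scaling. Nerve and Schwann markers had 357 and 236 reads over 4 of 6 (log2 0.63, 0.39 to 0.87), and satellite cell markers 301 and 484 over 2 of 3 (-0.65, -0.86 to -0.45). The 2 satellite cell markers went opposite ways, with log2 ratios of -0.73 and 0.75. The marker at -0.73 was called lower with libraries scaled by the median ratio. This is 1 of 2 entries, where 3.97% of all genes were called lower under that scaling. Adipocyte markers had reads for 4 of 6 symbols and 34 and 40 reads, with PLIN1 at 2 and 0 reads and LEP at 1 and 0. Tendon and cartilage markers had reads for 4 of 8 and 64 and 53 reads, most of them from TNMD (50 and 39), with COMP at 4 and 6. Their part in the matrix values was not tested.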

How the data were processed

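The authors sequenced oligo(dT)-enriched RNA of 2 pools on an Illumina HiSeq 2000, and aligned the filtered reads with SOAPaligner/soap2 (2 mismatches at most) against the transcripts of Sscrofa9. The authors deposited raw counts, the number of unique reads for each transcript. The deposited RPKM is that count per kb of transcript and per M unique reads, and the deposited percent is the share of the transcript covered by reads. Recomputed RPKM matched the deposited values to a relative difference of 3.35e-08. Transcripts absent from a table were taken as 0 reads. Groups were taken from the sample titles.

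Log2 RPKM ratios were computed for 12535 transcripts with a two-sided Audic-Claverie test and Benjamini-Hochberg adjustment over all of them, as in the methods of the study (FDR of at most 0.001 and log2 ratio of at least 1 in size). For described ratios, under 3 reads were set to 3 reads. The p-values measure the counting spread between 2 libraries only. The test was tried on simulated reads with known changes and counting noise only. That trial held no variation between piglets or pools and says nothing about it. Intervals are 95% Wilson intervals. Alternatives were other scalings, filters, a pseudocount of 1 RPKM, a correction by the running median over transcript length, the Fisher exact test and edgeR 4.0.16 with an assumed coefficient of variation of 0.2 or 0.4. Python 3.11.15, scipy 1.17.1 and R 4.3.3 were used.

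The members and lists were chosen with earlier results of these data known. Named members are those called under either scaling, the 4 of highest mean RPKM in each group and entries that share their protein name. Other members and list genes (among them COL12A1, FN1, TNC, SPARCL1, COL4A5, ADAMTS20 and LOXL1) were named after their values were seen. Symbols of 74 members came from the files or the reference gene table, and those of 23 from the name of the matched protein. Positions were taken from the Sscrofa9 descriptions deposited with each transcript.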

Additional observations from a re-analysis of the deposited data

How the results depend on the processing

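The count of members called higher was 2 or 3 under 11 of the 13 alternatives, and THBS1 and THBS2 were among them in each. It was 0 with edgeR at an assumed variation of 0.4 and 7 at an FDR of at most 0.05. The count called lower, 1 as reported, was 4 with median-ratio scaling and with TMM scaling, 3 with totals without the 20 most abundant transcripts, 2 with totals without mitochondrial transcripts, with the length-corrected ratio and at an FDR of at most 0.05, and 0 with edgeR at either assumed variation and at a log2 ratio of at least 2. The members' median log2 ratio of -0.07 was -0.43 with median-ratio scaling, -0.46 with TMM scaling, -0.31 without mitochondrial transcripts, -0.37 without the 20 most abundant transcripts and -0.18 with the length correction. By construction a scaling shifts members and all genes alike, by 0.36, 0.39, 0.25 and 0.31 in that order, so that members stayed equally far below other genes. Of the called members, ADAMTS9 was no longer called under any of these 4 scalings, the pseudocount, the length correction or edgeR, and MMP23B not with edgeR. The cause of the other differences was not tested. No paired analysis was possible because each group is 1 library, and for the same reason no replicate could be left out. Depth limits the 33 members with under 20 reads.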

Other observations

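Collagens and other members of the same families that the rule missed through their wording were looked up after the values were seen, and 19 entries had reads. COL4A2, the partner chain of COL4A1, had 3848 and 4086 reads (110.0 and 114 RPKM, log2 -0.06, -0.12 to 0.01). With libraries scaled by total, both chains of the main type IV network were thus level. Scaled by the median ratio, COL4A1 had a log2 ratio of -0.36 (-0.41 to -0.31). MMP2, gelatinase A, which MMP14 activates, had 1864 and 2328 reads (log2 -0.29, -0.38 to -0.20). TIMP3, an inhibitor held in the matrix, had 76 reads (18.8 RPKM) in the abnormal and 23 reads (5.58 RPKM) in the normal library, a log2 ratio of 1.76 (1.09 to 2.42). It was called higher under both scalings, while TIMP1 pointed down and TIMP2 was level with libraries scaled by total. COL19A1 had 19 and 2 reads and was called higher with libraries scaled by total, a call that rests on 21 reads. EMILIN1, an elastic fibre glycoprotein, had 118 and 203 reads (log2 -0.75, -1.08 to -0.43) and was called lower with median scaling. LOX, the first lysyl oxidase, had 15 and 6 reads (log2 1.35, 0.03 to 2.67), where LOXL1 and LOXL4 had intervals below 0. Over these 19 entries, 2 (10.5%) were called higher, beside 12% of all genes, and none lower. With libraries scaled by the median ratio 1 was called higher and 1 lower, where 6.48% and 3.97% of all genes were. The median log2 ratio of the 11 with 20 or more reads, scaled by total, was 0.21, beside 0.39 for all genes with as many reads. These 11 were widely spread, with quartiles of -0.26 and 1.71. The intervals of 4 lay wholly above 0.36 and of 5 wholly below it. Among the 64 members of the rule, 6 lay wholly above and 36 wholly below.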
